A study of Rattus norvegicus with 8 samples.

Results

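The P2 receptors are the cell-surface receptors for extracellular nucleotides. The P2X receptors are cation channels that ATP opens, and the P2Y receptors couple ATP, ADP, UTP, UDP or UDP-sugars to G proteins. In the spinal cord P2X2 and P2X3 are known from sensory nerve terminals and neurons, P2X4 and P2X7 from microglia in models of persistent pain, and P2Y receptors from neurons and glia. The 10 genes described here are P2rx2, P2rx3, P2rx4, P2rx5, P2rx6, P2rx7, P2ry1, P2ry2, P2ry6 and P2ry14. They were found by their symbols in the array files, which hold 11 probes for them among 30367 probes. P2rx2 has 2 probes and each of the others has 1 probe.

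The samples were the lumbar L6S1 spinal cord of male Wistar rats, 12 weeks old in both groups. The 4 stressed rats underwent chronic water avoidance (WA) stress, in which a rat spends 1 h on a small platform surrounded by water, on 10 days, and tissue was taken 24 h after the last session. The 4 control rats were handled instead. RNA of each rat was hybridized to 1 Agilent 1-colour array, all 8 arrays lay on 1 slide, and stressed and control rats occupied different rows of it, so that row and stress cannot be told apart.

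The array of control replicate 2 stood apart from the other controls. The log2 signal of 5′ probes minus that of 3′ probes of the same transcript, as the median over 2020 transcripts and centred over the arrays, was 0.19 in this rat and between -0.27 and -0.16 in the other control rats. It lay between 0.09 and 0.16 in the stressed rats. For the receptors and the named pathway genes, results whose call turned on control replicate 2 are therefore given with and without it. Without control replicate 2, every control rat lay below every stressed rat in the 5′ minus 3′ value. In that fit, stress and the 5′ minus 3′ difference therefore cannot be told apart. With all 8 arrays, control replicate 2 was the only control rat not below the stressed rats in this value. Results below with the 5′ minus 3′ value as a covariate therefore rest largely on that rat. Among the marker lists, the 13 microglial genes were all detected. Their summed level, as multiples of the 75th percentile signal, was 29.0 to 31.6 in control rats and 27.4 to 31.8 in stressed rats. None of the 13 passed the test with all arrays. Without control replicate 2, 2 of them passed, 1 higher and 1 lower, where 42.4% of all probes passed. The summed level of 8 markers of dorsal root ganglion sensory neurons, some of which motor neurons also express, was 19.4 to 26.1 against 12.1 to 23.4, and that of 5 Schwann cell markers was 6.80 to 69.2 against 6.61 to 20.8. Their part in the P2 receptor levels was not tested. In this bulk tissue, fewer cells of a type and less RNA per cell cannot be told apart.

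Each probe is 60 bases long and reads 1 short stretch of its gene. The first 30 bases of 5 probes are shown because the results turn on them. These are both probes of P2rx2, which test the same gene at separate places, the P2rx4 probe, which varied most among rats of those tested here, the P2rx5 probe, whose 60 bases span 713 bases of the genome, and the P2rx7 probe, which stayed at background. They are in lower case, with no base marked.
P2rx2, probe with 10 spots: gcagtcctagagaagatctgcgctcttcag
P2rx2, second probe: tggattttgttaacgttcatgaacaaaaac
P2rx4: ctctactgcatgaagaagaaatactactac
P2rx5: ttttaccgagacaagaagtttgagaaagtg
P2rx7: acacgtgactgaaactgcaggagacgaact

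On the rn4 assembly, as the files give positions, these probes lie at chr12:46488004-46488063 and chr12:46487570-46487629 (plus strand, P2rx2), chr12:34945104-34945163 (minus strand, P2rx4), chr10:60045367-60046079 (plus strand, P2rx5) and chr12:35074875-35074934 (minus strand, P2rx7). Exons and untranslated regions were not analysed here. No pair of the 11 probes shared a run of more than 8 bases, so the probes of related receptors have little sequence in common. The P2rx4 and P2rx7 probes lie 129.8 kb from each other and the P2ry2 and P2ry6 probes 58.6 kb.

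Of the 11 probes, 10 were well above background on all 8 arrays and could be tested, for 9 genes. The exception was P2rx7, the ATP-gated channel tied to cytokine release and cell death. Its probe is printed in 10 spots on each array. On control replicate 2, 3 of the 10 spots were well above background, on control replicate 1 and stressed replicate 1 there was 1 such spot, and on the other 5 arrays there was none. These counts include spots flagged as outliers. The geometric mean signal of its spots, outlier spots left out, was 5.61, 13.6, 7.27 and 4.99 in control rats 1 to 4. In stressed rats 1 to 4 it was 10.0, 8.73, 11.1 and 6.65. On these arrays the dimmest spot counted as well above background read 12.8 to 16.1. The highest P2rx7 value was that of control replicate 2, the groups overlapped, and no fold is given because both groups were at background. Microglial markers were well above background in the same samples, as stated above.

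**Figure D1:**
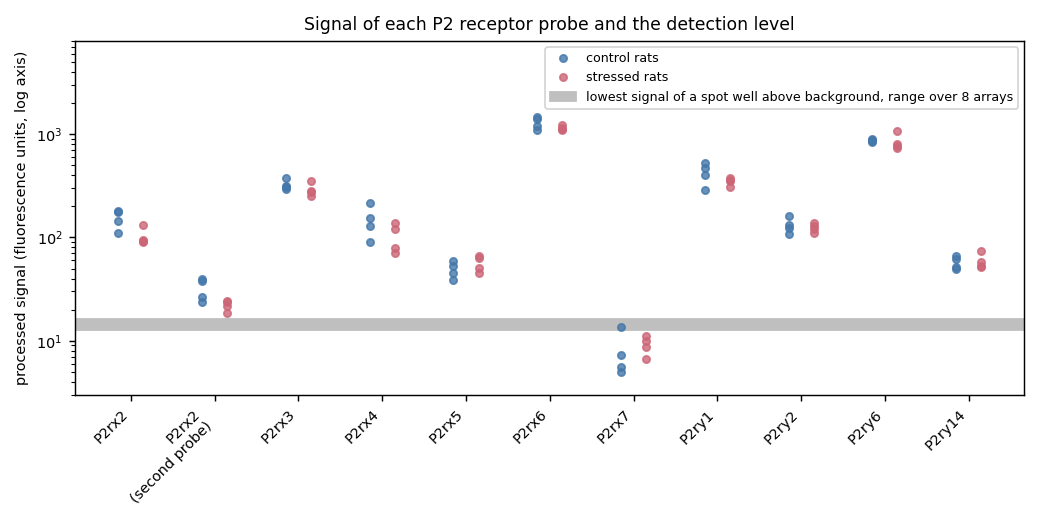
Processed signal of each P2 receptor probe (fluorescence units, log axis) in control rats (blue) and stressed rats (red), 1 point per rat. The grey band spans 12.8 to 16.1, the lowest signal of a spot well above background on each array; P2rx7 points lie at or below it and the points of the other 10 probes lie above it.

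None of the 10 tested probes passed the test at an FDR below 0.1. Among all 23677 probes tested, 3.74% did. The adjusted p of the P2 receptor probes was between 0.201 and 0.866 (limma, Benjamini-Hochberg over all tested probes). At an unadjusted p below 0.05 there was 1 of 10 probes, that of P2rx2, against 20.3% of all probes. No P2 receptor probe had groups that did not overlap, against 12.1% of all probes. The log2 difference, stressed minus control, was above 0 for 6 probes and below 0 for 4, with 14105 of all 23677 probes above 0. Its median was 0.03 for the P2 receptor probes and 0.06 for all probes, and the median of its absolute value was 0.19 and 0.17. The 95% interval of the difference lay within a 2-fold change in either direction for 9 of the 10 probes and within a 1.5-fold change for 6. A p above the threshold does not show that levels were equal.

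**Figure D2:**
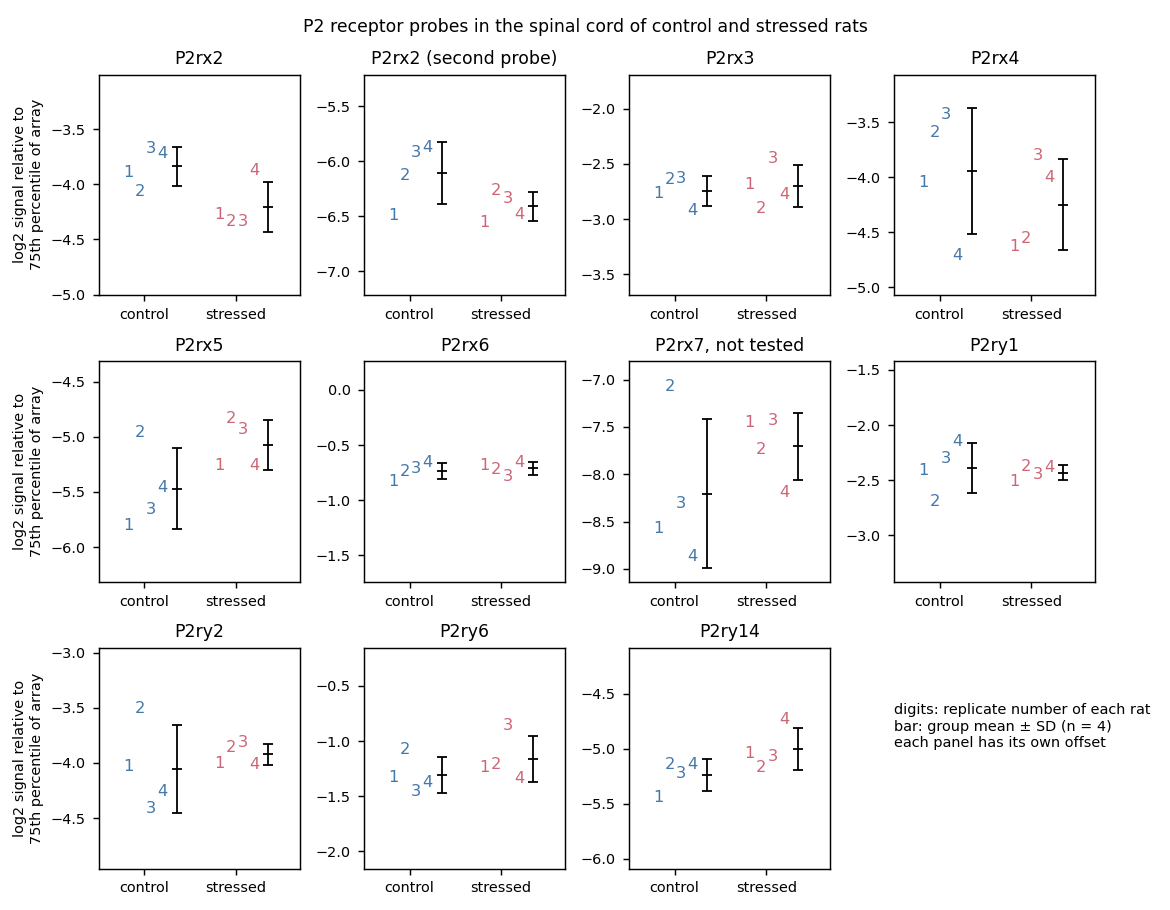
Log2 signal of each P2 receptor probe relative to the 75th percentile of its array, 1 digit per rat (the replicate number), with the group mean ± SD (n = 4) as a black bar. Control and stressed rats overlapped for every probe, and P2rx4 showed the widest spread between rats of the 10 tested probes.

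Among the channels, P2rx2 had the smallest p. P2X2 forms channels alone or with P2X3 and is known from sensory and autonomic neurons. The log2 level of its 10-spot probe was -3.89, -4.06, -3.67 and -3.72 in control rats 1 to 4 and -4.27, -4.34, -4.34 and -3.87 in stressed rats 1 to 4. In 3 stressed rats it was lower than in every control rat, while stressed replicate 4 lay among the controls. The difference was -0.37 on the log2 scale (SE 0.14, 95% interval -0.68 to -0.05, n = 4 and 4), a ratio of 0.775, with an adjusted p of 0.201 by limma and an exact permutation p of 0.086. The smallest p that this permutation test can give is 0.0286.

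The second P2rx2 probe, 0.434 kb away, had 1 spot per array. Its log2 level was -6.50, -6.13, -5.92 and -5.87 in control rats and -6.55, -6.27, -6.34 and -6.48 in stressed rats. Both P2rx2 probes thus had lower means in stressed rats. The second probe was dim, with signals of 18.6 to 39.8, near those of the dimmest spots counted as well above background. At this probe only stressed replicate 1 lay below every control rat. The difference at the second probe was -0.31 (SE 0.15, 95% interval -0.65 to 0.03), with an adjusted p of 0.281 by limma and an exact permutation p of 0.143. Here control replicate 1 was the low control, which was not so at the first probe, and across the 8 arrays the probes correlated with r = 0.53.

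Leaving out control replicate 2, the difference of P2rx2 became -0.44 with an adjusted p of 0.040 by limma, which passes the threshold. When the fit also held the 5′ minus 3′ value of the arrays it was -0.17 and with a normexp background correction -0.19, and neither passed. It was below 0 in all 19 alternatives.

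P2X3 is the partner of P2X2 in nociceptive sensory neurons. The P2rx3 level ranged from -2.93 to -2.63 in control rats and from -2.90 to -2.45 in stressed rats. The groups overlapped, with stressed replicate 3 the highest of all rats. The difference was 0.04 (SE 0.12, 95% interval -0.23 to 0.31), with an adjusted p of 0.866 by limma. It had no settled sign, being -0.08 after quantile normalization and -0.07 with the arrays centred on the median. The summed level of the sensory neuron markers was the lowest of all 8 rats in stressed replicate 3, at 12.1.

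P2X4 is the ATP-gated channel of microglia best known from nerve injury. P2rx4 varied more among rats than any other tested P2 receptor probe, with an SD within groups of 0.498, while its spots on the same array differed by an SD of 0.14. Its log2 level was -4.04, -3.59, -3.43 and -4.71 in control rats and -4.63, -4.56, -3.80 and -4.0 in stressed rats. The lowest rat of all was control replicate 4 and the highest was control replicate 3 on this scale. The difference was -0.30 (SE 0.31, 95% interval -1.03 to 0.42), with an adjusted p of 0.590 by limma and an exact permutation p of 0.40. The interval is wide enough to hold a fall of 50%. The difference was -0.56 to -0.13 when single rats were left out, and -0.19 without control replicate 2.

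P2X5 occurs in motor and sensory neurons. The log2 level of P2rx5 was -5.80, -4.96, -5.66 and -5.46 in control rats and -5.26, -4.83, -4.93 and -5.26 in stressed rats. Except for control replicate 2, every control rat was below every stressed rat. The difference was 0.40 (SE 0.20, 95% interval -0.06 to 0.85), the largest among the tested P2 receptor probes, with an adjusted p of 0.292 by limma and an exact permutation p of 0.114. Without control replicate 2 it was 0.57, with an adjusted p of 0.023. The rats with higher P2rx5 were those with a 5′ minus 3′ difference above 0. With that difference as a covariate the value was -0.04, with an adjusted p of 0.912 by limma. As stated above, a value from the covariate fit rests largely on control replicate 2.

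P2X6 forms channels mainly together with other P2X subunits. P2rx6 was the least variable of the tested P2 receptor probes, with an SD within groups of 0.064. Its log2 level ranged from -0.83 to -0.66 in control rats and from -0.79 to -0.66 in stressed rats. The ranges covered each other almost fully. The difference was 0.02 (SE 0.07), and its 95% interval held ratios between 0.910 and 1.134. Its sign was not settled either, with -0.01 after quantile normalization and -0.09 on the median scale.

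Among the G protein-coupled receptors, P2Y1 responds to ADP. The P2ry1 level ranged from -2.69 to -2.15 in control rats and from -2.52 to -2.38 in stressed rats. All stressed rats lay inside the control range, whose lowest value was that of control replicate 2. The difference was -0.04 (SE 0.12, 95% interval -0.31 to 0.23), with an adjusted p of 0.853 by limma. Without control replicate 2 it was -0.14 with an adjusted p of 0.199, and with the 5′ minus 3′ covariate 0.17.

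P2Y2 responds to ATP and UTP. The log2 level of P2ry2 was -4.04, -3.50, -4.42 and -4.26 in control rats and -4.0, -3.86, -3.82 and -4.01 in stressed rats. Control replicate 2 was the highest rat of all, and the other 3 controls were below every stressed rat. The difference was 0.13 (SE 0.19, 95% interval -0.30 to 0.56), with an adjusted p of 0.706 by limma. Without control replicate 2 it was 0.31, with an adjusted p of 0.059, below the threshold of 0.1. It was -0.29 with the 5′ minus 3′ covariate and -0.07 after quantile normalization, so that its sign depended on these choices.

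P2Y6 is the UDP receptor linked to phagocytosis by microglia. Its probe has 10 spots, whose SD on the same array was 0.059. The log2 level of P2ry6 was -1.33, -1.07, -1.46 and -1.38 in control rats and -1.24, -1.21, -0.86 and -1.34 in stressed rats. Stressed replicate 3 was the highest, followed by control replicate 2. The difference was 0.15 (SE 0.13, 95% interval -0.15 to 0.44), with an adjusted p of 0.534 by limma. It was 0.045 without stressed replicate 3, 0.22 without control replicate 2 and -0.055 with the 5′ minus 3′ covariate, none of which passed.

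P2Y14 is the receptor for UDP-glucose and related UDP-sugars. The log2 level of P2ry14 was -5.45, -5.14, -5.22 and -5.14 in control rats and -5.04, -5.17, -5.07 and -4.73 in stressed rats. In 3 stressed rats it was higher than in every control rat, and stressed replicate 2 lay among the controls. The difference was 0.23 (SE 0.12, 95% interval -0.04 to 0.51), with an adjusted p of 0.300 by limma and an exact permutation p of 0.086. It was above 0 in all 19 alternatives, from 0.03 to 0.29, and passed in none.

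Without control replicate 2, 3 of the 10 P2 receptor probes passed, which were the first probe of P2rx2, P2rx5 and P2ry2. This is to be read against 42.4% of all probes that then passed. As stated above, stress and the 5′ minus 3′ difference cannot be told apart in this fit. When limma weighted the arrays by their quality, control replicate 2 received a weight of 0.107 and the other rats 0.784 to 2.71, and 5 probes passed, those of P2rx2 (both), P2rx5, P2ry2 and P2ry6. Of all probes 50.6% passed with these weights. In both settings the share of the P2 receptor probes was no higher than that of all probes.

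**Figure D3:**
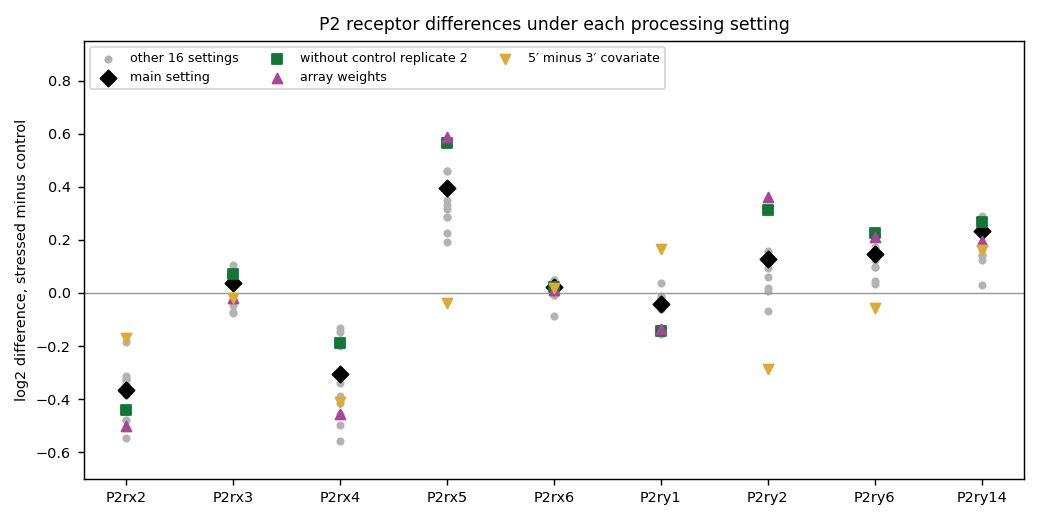
Log2 difference, stressed minus control, of the 9 tested P2 receptor genes under the main setting (black) and 19 alternatives, with 3 of them coloured. P2rx2 and P2rx4 stayed below 0 and P2ry14 above 0 in all of them, while P2rx5 ran from -0.04 with the 5′ minus 3′ covariate to 0.59 with array weights.

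The levels of several P2 receptors varied together over the 8 arrays, which is given as a description since the points share arrays and groups. P2ry2 and P2ry6, neighbours on chromosome 1, correlated with r = 0.76, P2rx5 with P2ry6 with r = 0.74, and P2rx3 with P2rx4 with r = 0.68. The 10-spot probe of P2rx2 ran opposite to P2rx5 (r = -0.78), which its second probe did not (r = -0.11), and P2ry1 opposite to P2ry2 (r = -0.83). The genes whose levels were most like each receptor, among 13417 symbols, were Grk6, Tbrg4 and Zfp426 for P2rx2 (highest r 0.984), Rhbdl2, S100a9 and Anxa9 for P2rx3 (0.932), Msl2, Ccl2 and Cmya5 for P2rx4 (0.944), and Pde8a, Abhd6 and Fam98a for P2rx5 (0.993). For P2rx6 they were Actrt2, Dffb and Mfap1a (0.931), for P2ry1 Capzb, Ckap5 and Zfand2a (0.975), for P2ry2 Mmp28, Stat6 and Ctbp1 (0.989), for P2ry6 Rxrg, Ripk3 and Agpat4 (0.986), and for P2ry14 Btnl8, Rps4y2 and Gkap1 (0.941). For the second P2rx2 probe they were Micalcl, Hspb6 and Anapc1 (0.969), none of which was shared with the first probe. These r values were picked as the highest of 13417 over only 8 arrays, and how high chance alone would reach was not tested.

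The rest of the pathway was examined in 5 lists of 48 genes for the release, sensing and clearance of nucleotides and for microglial signalling, of which 43 were tested and none passed at an FDR below 0.1. At an unadjusted p below 0.05 there were 7 of the 43, and 6 had groups that did not overlap, to be read against the 20.3% and 12.1% of all probes given above. Without control replicate 2, 11 of the 43 passed, 6 higher and 5 lower, where 42.4% of all probes did. Gpr17, Lrrc8a and Entpd3 were among these 11. Their differences were 0.24, 1.07 and -0.14 with all arrays (adjusted p 0.513, 0.394 and 0.388 by limma). Without control replicate 2 they were 0.44, 1.61 and -0.20 (adjusted p 0.010, 0.073 and 0.086 by limma).

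Among the other P2 receptors, 4 of 6 were tested and all 4 had a difference above 0, with a median of 0.21. Of all 23677 probes tested, 14105 had a difference above 0. The largest among these 4 receptors was that of P2ry4, a UTP receptor, at 0.41 (SE 0.19, adjusted p 0.261 by limma). It was 0.18 with a normexp correction. P2ry12, the ADP receptor that marks resting microglia, had a difference of 0.16 (SE 0.08, adjusted p 0.309), which was 0.045 with median scaling. Of the 2 probes of P2rx1, 1 was well above background on no array and the other on 1 array, and P2ry10 was so on 1 control array.

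Of the genes for ATP release, 7 of 8 were tested. Panx2, a pannexin, had a difference of -0.32 (SE 0.08) with groups that did not overlap and an adjusted p of 0.105 by limma, just outside the threshold. It passed in 9 of 19 alternatives and was below 0 in all. The channel-forming Panx1 had a difference of -0.27 (SE 0.09, adjusted p 0.166), which was -0.33 without control replicate 2 (adjusted p 0.014) and -0.14 with the 5′ minus 3′ covariate. Gja1, which encodes connexin 43 of astrocytes, had a difference of 0.30 (SE 0.08) with groups that did not overlap, an adjusted p of 0.12 and 5 alternatives in which it passed. Without control replicate 2 the values of Panx2 and Gja1 were -0.30 and 0.30, with adjusted p of 0.027 and 0.030 by limma. Calhm2, a large-pore channel gene, had a difference of 0.30 (SE 0.12, adjusted p 0.234), which was 0.39 without control replicate 2 (adjusted p 0.024) and 0.11 with the covariate. Calhm1 was well above background on no array. Astrocyte markers, none of 8 of which passed with all arrays, had a median difference of 0.17. Without control replicate 2, 3 of the 8 passed, all higher, where 42.4% of all probes passed. These were Gfap, Slc1a2 and Fgfr3, at 1.20, 0.62 and 0.47 (adjusted p 0.023, 0.0036 and 0.0087 by limma). With all arrays they were at 0.81, 0.42 and 0.23.

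Of the enzymes that clear nucleotides and adenosine, 13 of 14 were tested, 4 with a difference above 0 and 9 below 0 (median -0.09). Enpp3, an ectonucleotide pyrophosphatase, had a difference of -0.26 (SE 0.09, adjusted p 0.197 by limma) and Entpd6, a nucleoside diphosphatase, one of -0.17 (SE 0.07, adjusted p 0.230). Adk, the adenosine kinase, had a difference of 0.30 (SE 0.12, adjusted p 0.227). Adk passed in 3 of 19 alternatives, among them the 5′ minus 3′ covariate, with 0.53 (adjusted p 0.054), and the fit without control replicate 2, with 0.19 (adjusted p 0.082). Enpp3 passed in 2 alternatives, in that without control replicate 2 with -0.26 (adjusted p 0.080). In Enpp3, Entpd6 and Adk the groups did not overlap. Nt5e, which forms adenosine from AMP, had a difference of 0.21 (SE 0.13, adjusted p 0.395), and 0.031 with the covariate.

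All 6 adenosine receptors and transporters were tested, with a median difference of -0.08. Adora3 had a difference of 0.17 (adjusted p 0.283 by limma) and Adora1, the inhibitory receptor of spinal neurons, one of 0.09 (adjusted p 0.407) with groups that did not overlap, which was -0.02 on the median scale. A second probe of Adora1 had a difference of 0.70 (SE 0.33, adjusted p 0.271). The transporter Slc29a1 had a difference of -0.21 (adjusted p 0.264) and Adora2a one of -0.15 (adjusted p 0.287).

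Of the genes tied to P2X4 and P2X7 in microglia 13 of 14 were tested, 5 with a difference above 0 and 8 below 0, and the median log2 difference was -0.0048. Irf8, a transcription factor upstream of P2rx4, had a difference of 0.40 (SE 0.22, adjusted p 0.341 by limma), and it was -0.14 with the 5′ minus 3′ covariate and 0.60 without control replicate 2 (adjusted p 0.019). Il1b, the cytokine that P2X7 helps release, had one of 0.19 (adjusted p 0.726), which was -0.02 after quantile normalization. Bdnf, which microglia can release after P2X4 activation, had one of -0.31 (SE 0.18, adjusted p 0.358), and it was 0.11 with the covariate and -0.48 without control replicate 2 (adjusted p 0.0074). Irf8 and Bdnf each passed in 2 of 19 alternatives. Cx3cl1, the neuronal chemokine that Ctss sheds, had one of -0.08 (adjusted p 0.557). Nlrp3, the inflammasome sensor downstream of P2X7, was not tested, as it was well above background on 2 control arrays and 1 stressed array.

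**Figure D4:**
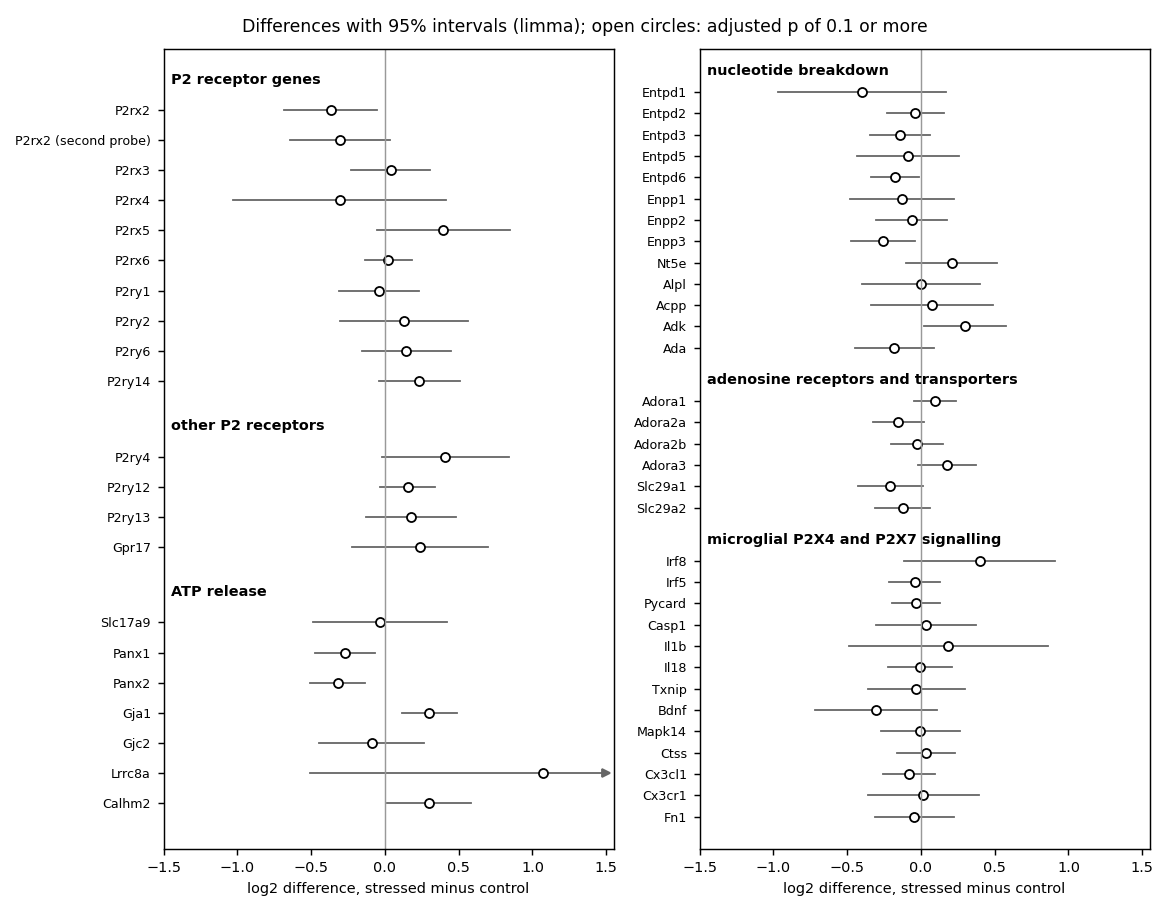
Log2 difference, stressed minus control, with its 95% interval from limma for the 10 tested P2 receptor probes and the 43 tested genes of the pathway lists (n = 4 and 4 rats). All circles are open because no adjusted p was below 0.1; the interval of Lrrc8a is clipped at 1.5.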

How the data were processed

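Spinal cord RNA of 4 stressed and 4 control rats was hybridized to Agilent 1-colour arrays. The intensity values deposited by the authors are Agilent Feature Extraction 10.7.3.1 processed signals, background-subtracted and detrended within each array, with very small values replaced by a surrogate. The deposited value table holds the same intensity, rounded, within 0.05, and was used as an alternative. The paper names dChip for later steps, and the normalization and test are not given in the sources used here.

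The log2 signal was reduced by the 75th percentile of each array over 58717 spots apart from 4259 control spots. Outlier spots were set to missing, and 10 probes then missing on an array were left out. Replicate spots were averaged per probe. Probes with 0.5 or more of their spots well above background on 4 or more of the 8 arrays were tested. The test was that of limma 3.58.1 (lmFit, eBayes, two-sided, no covariate), run in R 4.3.3 with the package data.table, version 1.17.8, and with Benjamini-Hochberg adjustment over 23677 probes and a threshold of 0.1. Exact permutation tests over all 70 choices of 4 arrays were two-sided. The script was tested on simulated data with the mean and spread of each probe. Of 200 probes changed by 0.5 on the log2 scale, 32 were recovered at the threshold. Of 200 probes changed by 1, 142 were recovered. Intervals are 95%. P-values measure the spread between these rats, and the number of arrays limits the precision. Probes of different genes were not compared in level.

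The 5′ minus 3′ difference used transcripts with probes at least 300 bases apart. All 10 receptors were named with every probe, the brightest standing for the gene. Of each pathway list, the genes with the 2 smallest p in each direction were named, and for each receptor the 3 symbols with the highest Pearson r. P2rx1, P2ry10, Calhm1 and Nlrp3, which were not tested, were named in addition. Gpr17, Lrrc8a and Entpd3 were added for the fit without control replicate 2. The receptors and all lists were chosen with earlier results of these data known.

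Marker lists covered microglia, astrocytes, oligodendrocytes and their precursors, neurons, motor neurons, sensory neurons, Schwann, endothelial, meningeal and blood cells. In the main setting 1 gene each passed in oligodendrocytes, neurons, Schwann and endothelial cells, and none in the others. Without control replicate 2 further markers passed, where 42.4% of all probes passed. Alternatives were a normexp correction with an offset of 50, quantile and median scaling, the deposited values, other filters, a variance trend, array weights, replicate number as a block, 1 probe per symbol, the 5′ minus 3′ covariate and leaving out each array. Other assays of the study were not analysed here.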

Additional observations from a re-analysis of the deposited data

Results flagged for a closer look

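Among the 22 groups of 4 values examined (2 for each of the 11 probes), 1 held a rat far from the others, where chance gives about 1.1. This was stressed replicate 4 at the 10-spot probe of P2rx2, with a log2 level of -3.87 against -4.34 to -4.27 in the other stressed rats. Its gap to the nearest of them was 0.860 of the range of the group, above the 95% critical value of Dixon's test for 4 values. Without this rat the difference of P2rx2 was -0.48 with an adjusted p of 0.148 by limma. At the second P2rx2 probe the same rat, at -6.48, lay within the other stressed rats.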

How the results depend on the processing

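The number of P2 receptor probes that passed was 0 in the main setting and in 17 of 19 alternatives. It was 5 with array weights and 0 to 3 when each rat was left out in turn, the 3 being without control replicate 2. Replicate numbers were not treated as pairs. Same-numbered rats correlated with r = -0.09 to 0.31, which cannot show whether the numbers pair the rats. In a fit with a replicate block 0 probes passed among the P2 receptors and 0 among all probes. Of all probes, 885 passed in the main setting, against 215 with normexp, 1329 with median scaling, 1295 with a variance trend, 3010 of 30357 with no filter, 2327 with the 5′ minus 3′ covariate, 11983 with array weights, 605 of 13417 with 1 probe per symbol, and 0 to 10038 when each rat was left out. The share of passing probes that were higher was 74.0%, 58.1% with quantile, 46.6% with median scaling, 85.2% with no filter, 88.4% with normexp and 47.3% with the covariate, and median scaling moved the median difference of all probes from 0.06 to -0.05. The count over the pathway lists under alternatives was added after seeing the data. It was 2 with quantile normalization, no filter or a variance trend, 1 with median scaling, a filter on all 8 arrays or 1 probe per symbol, 3 with the covariate, 15 with array weights and 0 to 11 when each rat was left out, the 11 being without control replicate 2.

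The sign changed, with no call on either side, as follows. With quantile normalization the difference was -0.076 for P2rx3, -0.0092 for P2rx6, -0.070 for P2ry2 and -0.016 for Il1b. With median scaling it was -0.073 for P2rx3, -0.089 for P2rx6 and -0.017 for Adora1. With array weights it was -0.017 for P2rx3. With the covariate it was -0.018 for P2rx3, -0.037 for P2rx5, 0.17 for P2ry1, -0.29 for P2ry2, -0.055 for P2ry6, -0.14 for Irf8 and 0.11 for Bdnf. With normexp it was -0.0059 for P2rx6. With 1 rat left out it was -0.045 to 0.10 for P2rx3, -0.0082 to 0.049 for P2rx6, -0.14 to 0.037 for P2ry1 and -0.040 to 0.34 for Il1b. The cause was not tested. The signal of P2rx7, at background, is not resolved by these arrays.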
